A study of Mus musculus with 2 samples.

Results

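The genes described here encode cell surface and granule proteoglycans of macrophages and a syndecan adaptor. They comprise the syndecans *Sdc1*, *Sdc2*, *Sdc3* and *Sdc4*, the glypican *Gpc1*, the hyaluronan receptor *Cd44*, the intracellular proteoglycan *Srgn* (serglycin) and *Sdcbp*, which encodes syntenin. They were chosen by name, as the rows of the deposited expression table that carry these symbols, and all 8 members were found among its 37451 genes. Expression was measured by RNA-Seq in 1 library of WT and 1 library of ΔM bone marrow-derived macrophages (BMDMs). WT BMDMs came from C57BL/6 mice, and ΔM BMDMs from C57BL/6 mice with TTP fl/fl and LysMCre, in which Cre made from the lysozyme M locus of myeloid cells removes *Zfp36*, the gene of the mRNA-destabilizing protein tristetraprolin (TTP). The WT animals were littermates, and mice of both genotypes were between 7 and 9 weeks old. All cells were grown with CSF-1 from L929 cells, exposed to 10 ng/ml LPS for 6 h, and labeled with 100 μM 4-thiouridine over 16 h, so neither library shows the cells before LPS. The time is that of the treatment protocol, whereas the sample titles end in LPS7. How many mice stand behind a library is not given in the sources used here.

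Syndecans are transmembrane proteins whose ectodomains carry heparan sulfate, and some also chondroitin sulfate. These chains bind chemokines, growth factors and matrix proteins, and proteases can shed the ectodomains. Syntenin binds the cytoplasmic tails of syndecans through its PDZ domains and takes part in their recycling and in the formation of exosomes. GPC1 carries heparan sulfate on a lipid-anchored core protein. CD44 binds hyaluronan, and some of its splice forms carry glycosaminoglycans. Serglycin holds proteases and cytokines in the granules and secretory vesicles of hematopoietic cells. TTP binds AU-rich elements in 3′ UTRs, and removal of TTP can stabilize mRNAs that carry them.

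The TTP binding sites mapped by PAR-iCLIP bear on these genes. The site list of the study holds sites of at least 8 nt for *Sdc4*, *Sdcbp* and *Cd44*, in each case in the 3′ UTR. Shorter listed sites were left out here, so the list may hold further sites in these and other members. Only the sequences of that list were used, and the copy used is shortened for *Sdc4*. Each sequence was found again here at its position in the annotated transcripts of NCBIM37 (mm9). The sites are shown because they carry the uridine-rich stretches and the pentamer compared below. They are given in the sense orientation as DNA, with the bases of the site in capitals and flanking bases in lower case. The first *Sdc4* site is 38 nt long, and its last 24 bases are shown. A further *Sdc4* site of 14 nt, between the first and second, is not printed.
*Sdc4*, chr2:164250703-164250740, minus strand: ATTTTTTTTTGTTTTTTACTATTTatagct
*Sdc4*, chr2:164250635-164250658, minus strand: ccaTGTTTTTTTTTTTTTTTTTTTTTTaat
*Sdc4*, chr2:164249784-164249808, minus strand: ctGATCTTTTTTTTTTTTTTTTTTGATaa
*Sdcbp*, chr4:6322761-6322770, plus strand: gtgcctatccTATTATTTTAtgtgatatta
*Cd44*, chr2:102651642-102651649, minus strand: tctttttccaGTTTTTGTatatttattg

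Over its full 38 nt, the first *Sdc4* site held 71.1% T. The other *Sdc4* sites shown held 95.8% and 80.0% T, the *Sdcbp* site 70.0% and the *Cd44* site 75%. The first *Sdc4* site begins 845 nt after the stop codon of a 3′ UTR of 1839 nt. This 3′ UTR holds 1 ATTTA pentamer, the core of AU-rich elements, and that pentamer starts in the last bases of the site and ends in the flank. The same place holds the only TATTTAT of the *Sdc4* 3′ UTR. In *Cd44* the site lies 2640 nt after the stop codon of a 3′ UTR of 2992 nt, and 1 pentamer lies within 10 nt of it. The *Sdcbp* site, 1049 nt after the stop codon, has 0 pentamers within 10 nt.

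ATTTA pentamers were counted on the sense strand, with overlaps, in the longest annotated 3′ UTR of each member. *Sdc2* held 11 pentamers in 2190 nt, the largest number of the 8 genes. Its mRNA was detected by about 2 and 3 fragments only, so its lack of a listed site of at least 8 nt is not compared. It was followed by *Cd44* with 6, *Sdcbp* with 5 and *Srgn* with 4 in 1033 nt. *Sdc3* held 3 pentamers in 3510 nt, and *Sdc1*, *Sdc4* and *Gpc1* held 1 each. Of the 19834 protein-coding genes with a 3′ UTR of at least 10 nt, 61.6% had at least 1 pentamer. The median count was 1, which every member reached, but their median 3′ UTR was only 896 nt. Per kb of 3′ UTR the median was 1.02. *Sdc4* (0.54), *Sdc3* (0.85), *Sdc1* (0.52) and *Gpc1* (0.61) lay below it. *Cd44* (2.01), *Sdcbp* (2.91), *Srgn* (3.87) and *Sdc2* (5.02) lay above it. TATTTAT, which contains the pentamer, was found in *Cd44* with 3 copies and in *Sdc2* and *Sdc4* with 1 copy each, against 24.0% of all genes with at least 1. Other annotated ends change these counts. With the shortest annotated 3′ UTR the number was 0 for *Sdc1* in 1152 nt, 1 for *Srgn* in 182 nt and 3 for *Sdcbp* in 1091 nt. The shortest one of *Cd44* is annotated over 13 nt and held 0, which says little at that length. A match of letters is a description of the sequence and does not show binding.

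**Figure D1:**
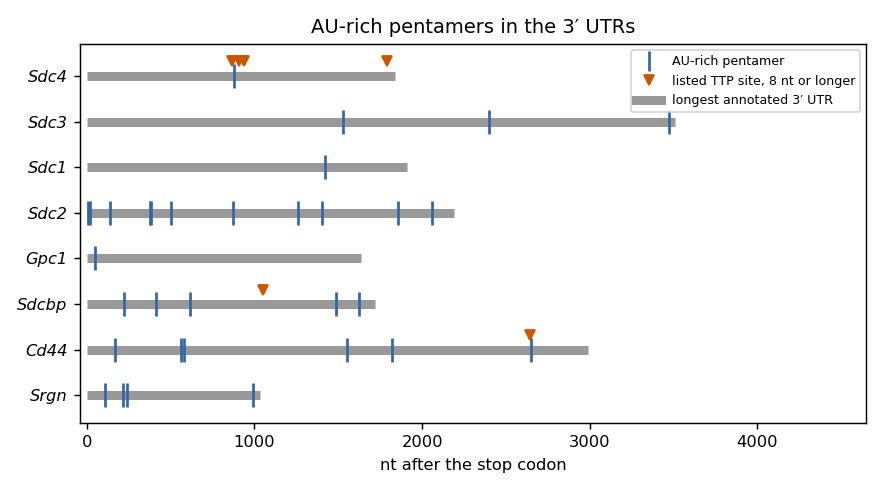
Longest annotated 3′ UTR of each gene as a grey bar, in nt after the stop codon, with ATTTA pentamers as blue ticks and listed TTP sites of at least 8 nt as orange triangles. Site positions give the nt between the stop codon and the site, and pentamer positions count the first base of the 3′ UTR as 1. In *Sdc4* the site at 845 nt overlaps the single pentamer, whose first base is number 880 of the 3′ UTR. The sites at 902 and 927 nt have 0 pentamers within 10 nt. *Sdc2*, with 11 pentamers, was barely detected as mRNA, so its lack of a listed site of at least 8 nt is not a contrast.

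The libraries held about 37200000 fragments in WT and 32700000 in ΔM, estimated from the steps between low values. The deposited values are FPKMs, fragments scaled to exon length and to the mapped fragments of the library, and allow levels of different genes to be compared per length. With 1 library per genotype there is no replicate check and no p-value, and every interval given is an approximate 95% counting interval that leaves out the variation between cultures and animals. *Zfp36*, the targeted gene, went from 65.3 FPKM in WT to 16.7 FPKM in ΔM. Of the macrophage markers, 8 of 9 were found, all with a mean of at least 1 FPKM, and their sum went from 4001 FPKM in WT to 2864 FPKM in ΔM, mainly through *Lyz2*, the gene of the locus that carries Cre, at 2481 and 1356 FPKM. Markers of T cells, B cells, dendritic cells, mast cells and fibroblasts each summed to under 1 FPKM in both libraries, the highest sum being 0.82 FPKM. Of the 5 neutrophil markers, *S100a8* was at 50.7 FPKM in WT and 100.0 in ΔM whereas *S100a9*, *Ly6g* and *Elane* were listed at 0 in both. Of the 3 endothelial markers, *Kdr* was at 5.59 and 3.23 FPKM, whereas *Cdh5* and *Tek* were at 0.04 FPKM or lower in both libraries. The part of these differences in the results was not tested. In whole cultures, fewer cells of a type and less RNA per cell cannot be told apart.

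*Sdc4* (ENSMUSG00000017009, chr2:164249747-164269387, minus strand, mm9 here and below) was by far the most abundant syndecan mRNA of the LPS-stimulated BMDMs. It was at 1036 FPKM in WT (1027 to 1044) and at 1177 FPKM in ΔM (1167 to 1186). Among the 22259 protein-coding genes of the table it ranked at position 14 in WT and 13 in ΔM. *Sdc4* made up 92.7% of the summed syndecan FPKM in WT and 92.9% in ΔM. Its log2 ratio of ΔM to WT, calculated after adding 1 FPKM to both values, was 0.18 (0.17 to 0.20), or 1.14-fold. The ΔM value was therefore higher by more than counting error.

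*Sdc3* (ENSMUSG00000025743, chr4:130348452-130382234, plus strand), a syndecan with a long ectodomain that is best known from the nervous system, was the next syndecan, at 75.8 FPKM in WT (71.7 to 80.0) and 84.5 FPKM in ΔM (79.9 to 89.3). *Sdc4* was 13.7 times as high as *Sdc3* in WT and 13.9 times in ΔM. The log2 ratio of *Sdc3* was 0.16 (0.044 to 0.27), close to that of *Sdc4*, with overlapping intervals.

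*Sdc1* (ENSMUSG00000020592, chr12:8778129-8800521, plus strand), the syndecan of epithelia and plasma cells, was low, at 5.60 FPKM in WT (4.69 to 6.61) and 5.73 FPKM in ΔM (4.77 to 6.84). Its log2 ratio was 0.028 (-0.27 to 0.35), and a difference was not detectable at this depth. *Sdc2* (ENSMUSG00000022261, chr15:32850478-32964485, plus strand), best known from fibroblasts and other mesenchymal cells, was near the limit of detection, at 0.03 FPKM in WT (0.0039 to 0.12) and 0.05 FPKM in ΔM (0.011 to 0.16). These values rest on about 2 and 3 fragments, and no ratio is given because both are at or under a floor of 3 counts. The summed level of the 4 syndecans was 1117 FPKM in WT and 1267 FPKM in ΔM, and this difference is almost entirely that of *Sdc4*.

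*Gpc1* (ENSMUSG00000034220, chr1:94728222-94756775, plus strand) was at 6.48 FPKM in WT (6.04 to 6.94) and 5.05 FPKM in ΔM (4.64 to 5.49), a log2 ratio of -0.31 (-0.44 to -0.17). It had the lowest ratio of the members. *Gpc1* stood above *Sdc1* in WT and below it in ΔM, but the counting intervals of the pair overlapped in both libraries, so their order is not settled. The other members kept 1 order of levels in both libraries, *Sdc4* above *Sdcbp*, *Srgn*, *Cd44* and *Sdc3*, with no overlap between neighbouring intervals.

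*Sdcbp* (ENSMUSG00000028249, chr4:6292797-6335570, plus strand) was the second most abundant member. Syntenin mRNA was at 348 FPKM in WT (344 to 353) and 320 FPKM in ΔM (315 to 325), a log2 ratio of -0.12 (-0.15 to -0.092). The level of *Sdc4* was 2.97 times that of *Sdcbp* in WT and 3.67 times in ΔM. The annotated end of *Sdcbp* overlaps *Nsmaf* on the opposite strand, at 30.2 and 27.3 FPKM, and whether counting used the strand is not given in the sources used here.

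*Srgn* (ENSMUSG00000020077, chr10:61956581-61990199, minus strand) was at 207 FPKM in WT (199 to 214) and 177 FPKM in ΔM (169 to 184). Its log2 ratio was -0.23 (-0.31 to -0.15), or 0.855-fold, the lowest among the 5 members above 10 FPKM. *Cd44* (ENSMUSG00000005087, chr2:102651298-102741822, minus strand) was at 118 FPKM in WT (116 to 120) and 126 FPKM in ΔM (123 to 128), with a log2 ratio of 0.084 (0.049 to 0.12). The annotation holds 14 *Cd44* transcripts, of 1305 to 5614 nt, and the value of 1 FPKM per gene does not separate splice forms with and without variable exons. A U6 snRNA gene lies within *Cd44* on the opposite strand, at 140 FPKM in WT and 117 in ΔM. The use of strand in counting is unknown here too, and no counting interval was calculated for genes under 250 nt.

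**Figure D2:**
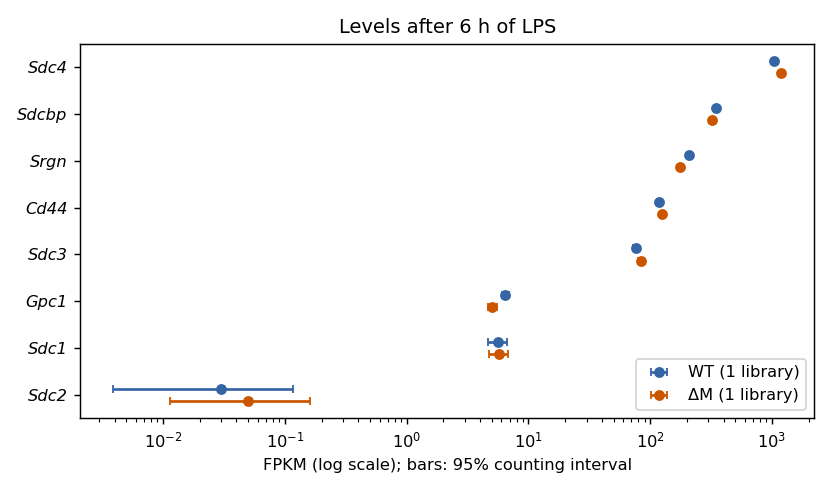
FPKM of each gene on a log axis in the WT library (blue) and the ΔM library (orange), with bars for the 95% counting interval. *Sdc4* stands at 1036 and 1177 FPKM, *Sdc1* and *Gpc1* lie together near 6 FPKM, and *Sdc2* is at 0.03 and 0.05 FPKM.

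All members except *Sdc2* reached a mean of 1 FPKM. Of these 7 members, 0 differed 2-fold between the libraries on the scale with 1 FPKM added. Of the 10765 genes that reached the same mean, 9.31% did. All members are protein-coding, and of the 8078 protein-coding genes at that mean only 203 differed 2-fold, so 0 of 7 is near that share. At 1.5-fold the number of members was 0 as well, where 18.7% of the 10765 genes differed. Over the table, 613 genes were at least 2-fold higher and 389 at least 2-fold lower in ΔM. Among the protein-coding genes the numbers were 96 and 107. In ΔM, 4 of the members were higher and 3 lower, with a median log2 ratio of 0.028. The median was 0.028 over all 10765 genes, -0.0015 over the protein-coding ones and -0.021 over those above a mean of 10 FPKM. For 6 members the counting interval of the ratio left out 1, namely *Sdc4*, *Sdc3* and *Cd44* above it and *Sdcbp*, *Srgn* and *Gpc1* below it. The same held for 50.9% of protein-coding genes, so that differences beyond counting error were common between these 2 libraries. For the protein-coding genes above a mean of 10 FPKM, the quartiles of the log2 ratio were -0.19 and 0.13, and the 5th to 95th percentiles ran from -0.53 to 0.48. *Cd44* and *Sdcbp* fell between these quartiles, *Sdc4* and *Sdc3* just above the upper one, and *Srgn* just below the lower one. The 3 members with a listed TTP site of at least 8 nt, *Sdc4*, *Cd44* and *Sdcbp*, did not share a direction.

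**Figure D3:**
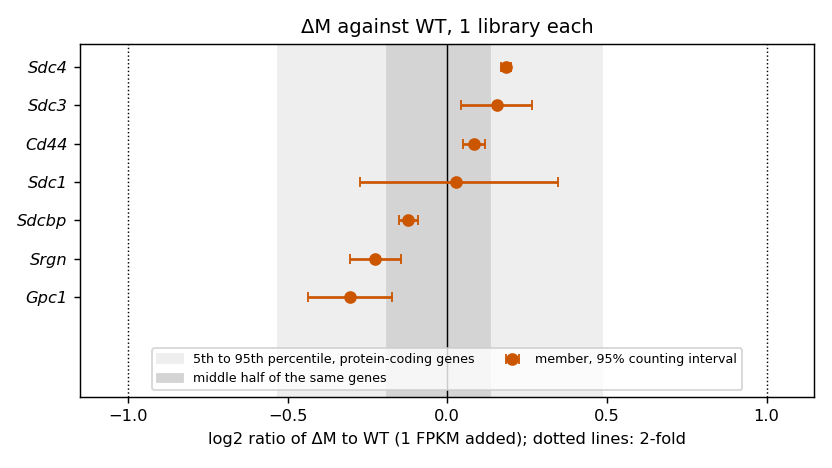
Log2 ratio of ΔM to WT of the 7 genes above the floor, with 95% counting intervals; grey bands give the range between the quartiles and the 5th to 95th percentile of protein-coding genes above a mean of 10 FPKM. Every gene lies between -0.31 and 0.18, inside the 5th to 95th percentile and short of the dotted lines at 2-fold.

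The enzymes that build and trim the chains were mostly low, and in each list few genes reached a mean of 1 FPKM. Of the 7 enzymes that make the linker between core protein and chain, 4 did so, with a median log2 ratio of 0.16 and 0 genes past 2-fold. The highest was *Xylt2*, a xylosyltransferase that starts the chains, at 48.3 FPKM in WT and 60.3 in ΔM, a log2 ratio of 0.32 (0.18 to 0.46). Of 25 enzymes of heparan sulfate chains, 8 reached 1 FPKM, with a median of 0.15. *Ext1*, a subunit of the chain polymerase, was the highest in WT, with 23.4 FPKM there against 15.7 FPKM in ΔM and a log2 ratio of -0.55 (-0.70 to -0.40). In this list 2 genes passed 2-fold, in opposite directions, against 9.31% of all genes tested and 203 of the 8078 protein-coding ones. Each reached a mean of 1 FPKM only through the library in which it was high, so that its passing both limits is not a result about the list, and at a minimum mean of 10 FPKM the number was 0. *Extl2*, which encodes an exostosin-like glycosyltransferase, went from 0.29 FPKM in WT to 9.11 in ΔM, with a log2 ratio of 2.97 (2.33 to 3.67), on about 17 and 459 fragments. *Sulf2*, an extracellular sulfatase that removes sulfate groups from heparan sulfate, was at 2.70 and 0.68 FPKM, a log2 ratio of -1.14 (-1.42 to -0.74), on about 70 and 16 fragments. The annotated *Sulf2* overlaps *Ncoa3* on the opposite strand, at 22.2 and 21.8 FPKM, and the use of strand in counting is unknown here too. Of 16 enzymes of chondroitin and dermatan sulfate, 6 reached 1 FPKM, with a median of 0.046 and 0 past 2-fold. *Dse*, the epimerase that forms dermatan sulfate, was the highest, at 17.5 and 14.5 FPKM.

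Genes of hyaluronan, the ligand of CD44, were mostly low, and 4 of 12 reached a mean of 1 FPKM. *Hyal1* did so only through ΔM, so no count of directions or median is read from the list. *Stab1*, a scavenger receptor related to the hyaluronan receptor *Stab2*, was the highest, at 22.7 FPKM in WT and 37.7 in ΔM, a log2 ratio of 0.71 (0.59 to 0.83). *Hyal1*, a lysosomal hyaluronidase, was the 1 gene past 2-fold, with 0.24 FPKM in WT, 11.1 in ΔM and a log2 ratio of 3.28 (2.50 to 4.30). The annotation places *Hyal3* and *Nat6* over part of *Hyal1* on the same strand, at 0.06 and 0.02 FPKM for *Hyal3* and 1.30 and 1.93 FPKM for *Nat6*, so that reads of the 3 genes may have been split in counting. *Hyal2*, a hyaluronidase anchored at the cell surface, was at 1.64 and 1.67 FPKM, with a log2 ratio of 0.016 (-0.23 to 0.30) that includes no difference. *Tmem2*, the fourth gene, was at 19.3 and 23.7 FPKM, with a log2 ratio of 0.28 (0.22 to 0.34). The synthases *Has1*, *Has2* and *Has3* were at 0.36 FPKM or lower in both libraries.

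Of 6 genes for proteases that shed syndecans or CD44 and their inhibitor, 4 reached 1 FPKM and 0 passed 2-fold. *Adam17*, the sheddase of TNF and of several surface proteins, was the highest, with 156 FPKM in WT, 97.8 in ΔM and a log2 ratio of -0.67 (-0.72 to -0.63). The other 3 were higher in ΔM, with *Mmp14* at 26.4 and 30.7 FPKM and *Adam10* at 3.76 and 5.18 FPKM, and the median of the list was 0.29. Of 16 cytoplasmic partners, 14 reached 1 FPKM, 7 were higher and 7 lower in ΔM, the median was -0.0063 and 0 passed 2-fold. *Chmp4b*, an ESCRT-III subunit used in membrane scission, was the highest, at 202 and 173 FPKM, a log2 ratio of -0.22 (-0.27 to -0.18). Of 24 other proteoglycans, 5 reached 1 FPKM with a median of 0.048 and 0 past 2-fold. *Cd74*, the invariant chain, which has a chondroitin sulfate form, was at 240 and 246 FPKM, and *Vcan*, the hyaluronan-binding versican, named here after its values were seen, was at 130 and 147 FPKM. The glypicans *Gpc2* to *Gpc6* were at 0.08 FPKM or lower, which leaves *Gpc1* as the glypican measured in these cells. Over all 10765 genes the median was 0.028, and over the 8078 protein-coding ones it was -0.0015.

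**Figure D4:**
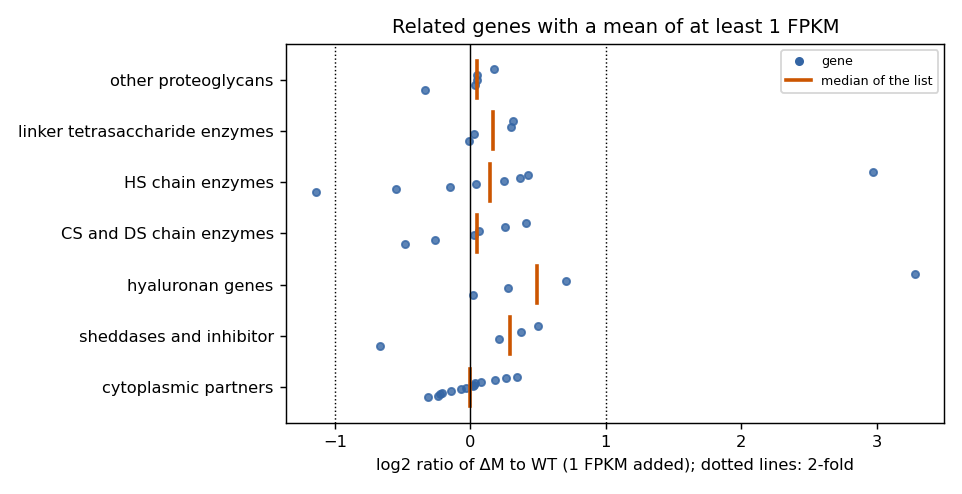
Log2 ratio of ΔM to WT of the related genes that reached a mean of 1 FPKM, 1 point per gene, grouped by list, with the median of each list as an orange bar and dotted lines at 2-fold. *Hyal1* at 3.28, *Extl2* at 2.97 and *Sulf2* at -1.14 lie outside the dotted lines.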

How the data were processed

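The authors removed rRNA, fragmented the RNA and sequenced the cDNA as read pairs. Cutadapt was used for trimming and Segemehl for mapping to mm9. From reads with a unique position, Cufflinks gave expression over Ensembl exons. The deposited values are FPKMs with 2 decimals, 1 per gene, and 1 gene has no number in ΔM. A count model was not fitted, since FPKMs are not counts. The sum over isoforms and the treatment of shared reads by Cufflinks can affect genes with several transcripts or overlaps.

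GENCODE M1 (NCBIM37) held 37039 of the 37451 gene identifiers. Fragments per library were estimated from single-transcript genes, as the number and mean length (202 nt in WT, 200 nt in ΔM) at which low FPKMs are whole multiples of 1 fragment. Within 0.1 fragment, 92.8% of 1051 values in WT and 92.1% of 1164 in ΔM were. Other ranges of gene length gave 35900000 to 37400000 fragments in WT and 32100000 to 32800000 in ΔM. On 3 simulated libraries the estimate was off by at most 0.61%. Counting intervals (95%, Poisson for levels, exact conditional binomial for ratios) used the median annotated transcript length.

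For log2 ratios, ΔM over WT, 1 FPKM was added to both values, which understates changes of low genes, and their intervals were carried to that scale. Genes with a mean under 1 FPKM were left out of counts. Named are all members, the highest gene of each list and the genes of each list past 2-fold with a mean of at least 1 FPKM. A few further list genes are named for context after their values were seen. The members and lists were chosen with earlier results of these data known. Alternatives covered the pseudocount, the minimum, the fold, scaling, transcript length and the 3′ UTR used. Python 3.11.15, numpy 2.4.6, pandas 2.3.3, scipy 1.17.1 and matplotlib 3.10.9 were used.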

Additional observations from a re-analysis of the deposited data

How the results depend on the processing

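No paired analysis was possible because each genotype has 1 library, which also means that leaving out a library was not possible. Of 28 alternative values for ratios of members, 26 lay within the counting interval of the main value, and none of the 28 changed direction. Centring on the median of protein-coding genes, -0.021, put *Sdc4* at 0.20, and a pseudocount of 10 FPKM put *Gpc1* at -0.13, since it shrinks ratios of low genes. The number of genes past 2-fold, 1002 of 10765, was 436 with a minimum mean of 10 FPKM, where fewer genes were counted. It was 203 among the 8078 protein-coding genes, so most genes past 2-fold were not annotated as protein-coding. That minimum left 1 linker enzyme at 0.32 against a median of 0.16, of the same sign. It left 2 heparan sulfate enzymes with a median of -0.094, 1 chondroitin sulfate enzyme at -0.26 and 2 sheddases with a median of -0.23. These values of the heparan sulfate, chondroitin sulfate and sheddase lists were opposite in sign to their main medians. The same minimum took the genes past 2-fold to 0 among heparan sulfate and hyaluronan genes. The shortest 3′ UTR gave 0 pentamers in *Sdc1*, 3 in *Sdcbp*, 0 in *Cd44* and 1 in *Srgn*, because it is shorter (13 nt in *Cd44*). Intervals depend on the transcript length assumed, but none moved across 0: the width for *Sdc3* went from 0.22 to 0.069 with the longest transcript, and with the shortest those for *Sdc1* and *Sdcbp* went from 0.62 to 1.38 and from 0.059 to 0.18. Depth limits *Sdc2* most, at 2 and 3 fragments, and *Sdc1*, at about 136 and 123.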

Other observations

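The protein-coding genes nearest to *Sdc4* in level across both libraries, by distance on the log2 scale, were *Irf7* at 989 FPKM in WT and 994 in ΔM, *Il1rn* at 980 and 987 FPKM, and *Eif4g2* at 1003 and 965 FPKM. None of the 3 shared the 1.14-fold difference of *Sdc4*, their log2 ratios being 0.0080, 0.010 and -0.055. Nearest to *Srgn* were *Chmp4b*, *Ifit2* at 199 and 177 FPKM and *Lpl* at 201 and 185 FPKM, with log2 ratios of -0.22, -0.17 and -0.12. With 2 libraries such nearness describes 2 values per gene and nothing more. *Mir149*, which lies within *Gpc1* on the same strand and is shorter than the fragments, was listed at 0 in WT and at 41.9 FPKM in ΔM. At such a length an FPKM can rest on very few fragments, and no counting interval was calculated under 250 nt. Its direction is therefore not set against that of *Gpc1*.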
